A study of Marchantia polymorpha with 12 samples.

Results

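The comparison described here set thalli of the liverwort Marchantia polymorpha that carried Mpknox2-1 and Mpez1-1 together against thalli that carried Mpknox2-1 alone. Members were chosen by their titles: the 3 libraries of each genotype in experimental set 1, 6 of the 12 samples of the series. All 6 came from thalli, the flat haploid plant body, at 14 days of age, grown under continuous white light, and replicates are biological per the titles. Mpknox2-1 was present in both groups, so no library here shows what Mpez1-1 does without it. The labels do not say whether either allele stands for 1 line or several, nor how many plants went into a library. Strand-specific libraries of polyadenylated RNA gave 7019900 to 12098548 gene counts per library.

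MpE(z)1 encodes an Enhancer of zeste protein, the catalytic subunit of Polycomb repressive complex 2 (PRC2). PRC2 methylates histone H3 at lysine K27, a mark that keeps developmental and tissue-specific genes silent, and in Marchantia the mark is also known from transposon-rich heterochromatin. Polycomb repressive complex 1 (PRC1), with RING1 and BMI1 subunits, acts on the same chromatin.

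The targeted gene was lower and still transcribed in the double mutant. MpE(z)1 (MpCXC3, Mp5g18040) was at 31.9, 24.7 and 25.8 CPM (a gene's counts relative to the TMM-adjusted total of its library) in the 3 controls and at 14.8, 13.3 and 11.3 CPM in the 3 Mpez1-1 libraries. The groups did not overlap, and the log2 fold change was -1.06 (SE 0.15, edgeR adjusted p = 0.000606). The nature of the allele is not given in the labels, so a transcript level does not by itself check its effect on the protein. MpKNOX2 (MpHD21), the homeobox gene mutated in both groups, had 0, 0 and 2 control counts and 9, 6 and 15 counts under Mpez1-1, too few to test.

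Other Polycomb genes fell into those that came on from 0 and those near their control level. MpRING1B1 and MpRING1B3, named for the catalytic RING subunit of PRC1, had 0 counts in all controls. MpRING1B1 reached 12, 18 and 11 counts in the Mpez1-1 libraries, at least 18.6-fold higher against a floor of 3 counts over the control group. MpRING1B3 reached 31, 43 and 48 counts, at least 55.2-fold higher. The gene between them, MpRING1B2, had 0 counts in the controls and 1 in each Mpez1-1 library. MpE(z)2, another Enhancer of zeste gene, went from 0 to 24, 36 and 18 counts, at least 35.3-fold higher. Among genes transcribed in the controls, the PRC2 gene MpFIE was at 8.51, 8.86 and 7.81 CPM and then at 7.52, 9.64 and 9.04 CPM, with overlapping groups. MpLHP1, named for a protein that binds the K27 mark, had a log2 fold change of 0.15, and the PRC1 genes MpBMI1 and MpRING1A had -0.22 and -0.37. None of these 4 passed the test. MpMSI, a histone-binding subunit gene, was called lower at -0.38 (edgeR adjusted p = 0.0396), a call kept in 1 of the 6 fits without 1 library. That call was lost in 5 of the 6 fits that left out 1 library. In all, 3 of 9 tested Polycomb genes rose and 2 fell, beside 26.5% and 24.1% of all tested genes. The 3 that rose were those on from 0, which could be tested only by being high in the double mutant. Those that fell were MpE(z)1 itself and MpMSI.

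Across the transcriptome, changes were many in both directions and far larger upward than downward. Of 12625 genes tested, 3349 were called higher (26.5%) and 3045 lower (24.1%) at an edgeR adjusted p under 0.05. Levels of the groups did not overlap for 31.3% of tested genes in the upward and 31.2% in the downward direction. The median log2 fold change was 1.21 over the higher genes and -0.67 over the lower genes, beside -0.02 over all tested genes. Among the higher genes 481 changed by at least 4 log2 units, against 17 of the lower genes. Most of the lower genes, 2333, changed by less than 1 log2 unit, as did 1435 of the higher genes. A gene silent in the controls passes the filter on low counts only through the double mutant, so such genes had to differ in order to be tested. Among genes under 5 CPM on average, 36.7% were called higher and 12.3% lower. The order was the reverse among genes at 500 CPM or more, with 18.4% higher and 32.8% lower. Genes with at least 1 count numbered 14801 to 15055 in the controls and 15365 to 15814 in the Mpez1-1 libraries, although the latter were sequenced less deeply.

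**Figure D1:**
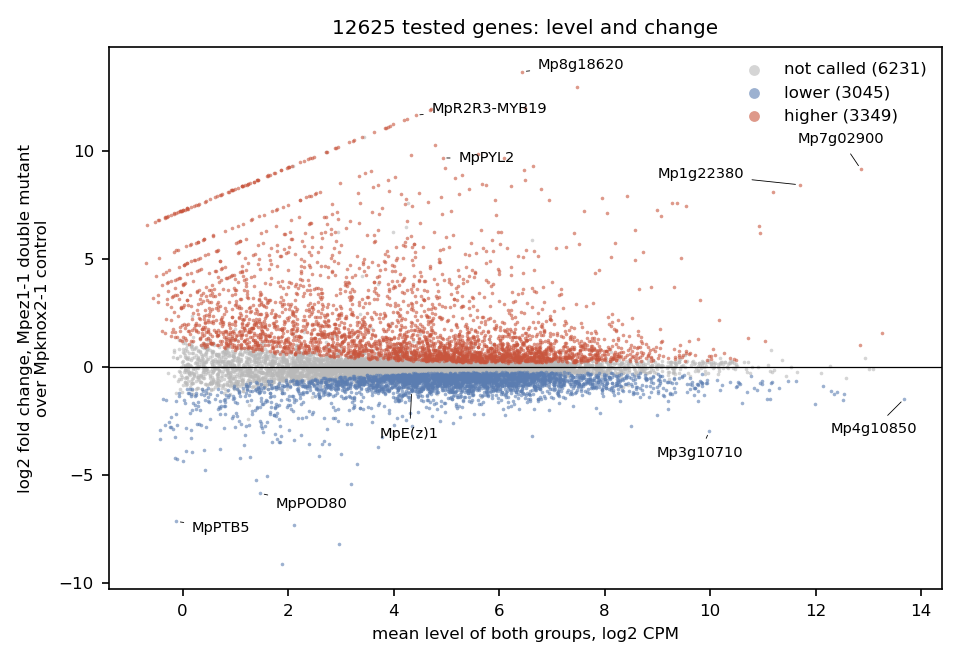
Each point is a tested gene, placed by its mean level over both groups (x axis, log2 CPM) and its edgeR log2 fold change of the Mpez1-1 double mutant over the Mpknox2-1 control (y axis), with called genes in colour. The upward spread reaches far higher than the downward spread, and the straight lines at the upper left are genes with 0 to a few control counts, whose fold changes are not bounds.

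Libraries within a group were not equally alike, which bears on several results below. Mpez1-1 replicate 3 stood farther from the controls than replicates 1 and 2. Over 10377 genes with at least 5 CPM, its log2 levels had a Pearson correlation across genes of 0.733 to 0.749 with the controls, against 0.841 to 0.852 for replicate 1 and 0.810 to 0.823 for replicate 2. Of these genes, 212 were over 1 log2 unit higher in replicate 3 than in the mean of replicates 1 and 2, and 90 were as far below. Without replicate 3, 3292 genes were called higher and 2953 lower. In the 6 fits that each left out 1 library, 2527 of the 3349 higher calls and 2067 of the 3045 lower calls were made every time.

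No control library held a count for 3328 genes, and 1154 of them were counted in an Mpez1-1 library. No Mpez1-1 library held one for 2767 genes, and 593 of them were counted in a control. By a stricter count, 98 genes had 0 counts in each control and at least 10 in each Mpez1-1 library, and 2 genes had the reverse. Since these counts chose the genes, their values are a description. The most abundant was Mp8g18620, at 98.8, 137 and 285 CPM in the Mpez1-1 libraries, at least 1848-fold higher. It lay in a run of 5 neighbouring genes, Mp8g18610 to Mp8g18650, that together had 2 control counts. Mp8g18610 was at 225, 309 and 530 CPM and Mp8g18650 at 82.0, 123 and 332 CPM in the Mpez1-1 libraries. Replicate 3 was the highest library for all 5 genes, none of which has a symbol. Mp8g18660, close by, rose from 0 to 51.4 ± 25.5 CPM (mean ± SD, n = 3 libraries, as in all such values here).

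Some genes that came on from 0 were steady across the Mpez1-1 libraries and others were not. Mp1g02490 was at 51.2, 49.6 and 57.1 CPM, at least 579-fold higher, and Mp2g18870 was at 31.9 ± 3.42 CPM. Transcription factor genes of the MYB class came on too: MpR2R3-MYB19 at 38.3, 48.8 and 41.4 CPM, Mp1R-MYB19 at 6.19 ± 2.60 CPM and MpR2R3-MYB16 at 3.96 ± 2.09 CPM carry nearby identifiers on chromosome 5. Of enzyme and defence genes, MpPPO25 and MpPPO26, of the polyphenol oxidase family that oxidises phenolics, reached 29.7 ± 4.43 and 15.1 ± 3.26 CPM. MpPR1g, of the pathogenesis-related PR1 family, reached 28.6 ± 4.65 CPM and the germin-like gene MpPR15f 17.8 ± 2.30 CPM. Mp1g26530 rose to 30.5 ± 30.8 CPM, but its call was lost in 5 of 6 fits without 1 library, and its level was 65.8 CPM in replicate 3 against 9.98 and 15.6 in the others. Of the 97 such genes with a place in the reference order, 17 lay next to another of them, a count without a background share. Next to a gene called higher lay 45 (46.4%), against 31.8% of the 12404 tested genes with a place. Of all 3349 genes called higher, 1452 lay in runs of at least 2 such neighbours, a share close to that of the genes on from 0.

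The 2 genes that went to 0 were Mp8g02780 and MpPTB5. Mp8g02780 had 48, 59 and 126 counts in the controls and 0 in each Mpez1-1 library, at least 57.2-fold lower against the floor over the Mpez1-1 group.

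A few genes took a visible share of all transcripts. Mp7g02900 was at 38.4, 25.7 and 12.2 CPM in the controls and at 13201, 14446 and 16827 CPM in the Mpez1-1 libraries. Its log2 fold change was 9.18 (SE 0.49, edgeR adjusted p = 9.69e-06), and its share of all gene counts went from 0.00260% to 1.48%. The genes Mp1g22360, Mp1g22370, Mp1g22380 and Mp1g22390 follow each other on chromosome 1. Mp1g22380 was at 28.6, 16.5 and 11.4 CPM in the controls and at 6354, 7065 and 6464 CPM in the Mpez1-1 libraries, a log2 fold change of 8.46. Mp1g22390 rose by 8.12, Mp1g22370 by 6.57 and Mp1g22360 by 6.22. How reads that match several near-identical genes were counted is not given in the sources used here, so the split between these neighbours is uncertain. In Mp7g02900 and in all 4 of these neighbours control replicate 1 was the highest control and replicate 3 the lowest. Mp2g07490, already abundant at 4948 ± 1622 CPM, reached 14682 ± 2462 CPM, and Mp3g10650 was at 1283, 1091 and 1497 CPM and then at 2448, 2607 and 3808 CPM. Mp2g12030, at 1.02 on the log2 scale, lost its call in 5 of 6 fits without 1 library.

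The genes that gave up the largest shares were abundant in the controls, and none was silenced. Mp4g10850, the most abundant of them, was at 18532, 18217 and 21084 CPM in the controls and at 9088, 7440 and 4342 CPM in the Mpez1-1 libraries (log2 fold change -1.47, SE 0.27, edgeR adjusted p = 0.00233). Its share of gene counts went from 1.95% to 0.696%, and that of its neighbour Mp4g10855 from 0.881% to 0.309%. MpTIP1, named for the aquaporins of the vacuole membrane, was at 7026, 7300.5 and 7565 CPM and then at 3600, 3255 and 2431 CPM, a change of -1.24. Mp4g06050 changed by -1.70, Mp4g15080 by -1.26, Mp4g13730 by -1.13 and Mp7g09180 by -1.12 on the log2 scale. Mp8g15740, at -0.87, lost its call in 3 of the 6 fits without 1 library. In Mp4g10850, Mp4g10855, MpTIP1 and Mp4g06050, Mpez1-1 replicate 3 was the lowest of the 6 libraries.

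Among genes that kept at least 5 CPM in the double mutant, the steepest falls were in genes mostly without a symbol. Mp1g15580 was at 145, 168 and 220 CPM in the controls and at 26.6, 23.5 and 8.62 CPM in the Mpez1-1 libraries (log2 fold change -3.17, SE 0.40). Mp3g10710 went from 1797 ± 76.1 to 229 ± 41.2 CPM (-2.98, SE 0.16), and its libraries were close within each group. The polyphenol oxidase gene MpPPO42 was at 613, 659 and 612 CPM and then at 128, 112 and 47.9 CPM (-2.71). Mp2g06690, Mp6g17690, Mp1g23650, Mp4g20350, Mp5g07550 and Mp4g08460 changed by -2.60 to -2.26. The fall of Mp7g06740, -2.72, was not called without Mpez1-1 replicate 3 (-2.44, edgeR adjusted p = 0.0725).

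The gene lists below group genes by symbol, and a list's counts are read against the 26.5% and 24.1% of all tested genes called higher and lower. Lists of secondary metabolism and defence held mostly genes that rose. In the defence list, of pathogenesis-related (PR) and NBS-LRR immune receptor genes, 51 of 65 tested members rose and 4 fell, with a median log2 fold change of 3.38. Within it, all 9 tested PR15 genes and all 12 tested PR1 genes rose, with medians of 8.05 and 5.49. Of the 11 PR15 and 22 PR1 genes with any count, 5 and 7 had none in the controls, so tested members include genes that passed the filter only by being high in the double mutant. MpPR1o, transcribed in the controls at 14.6, 3.01 and 7.19 CPM, reached 720.3, 1067 and 1412 CPM. NBS-LRR genes moved less: 12 of 21 rose and 4 fell, with a median of 0.34 and MpNBS-LRR8 at -1.15.

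Dirigent genes, whose products steer the coupling of phenolic radicals, were higher in 35 of 50 cases and lower in 5, with a median of 1.75. Of the 59 in the list, 7 had 0 control counts, and 2 of these were among the genes on from 0. MpDIR48, MpDIR47, MpDIR46, MpDIR45, MpDIR44 and MpDIR64 formed a run of 6 neighbours. MpDIR48 was at 13.4, 3.58 and 2.71 CPM in the controls and at 1412, 1242 and 1289 CPM in the Mpez1-1 libraries (log2 fold change 7.63). Log2 fold changes in the run ranged from 7.13 for MpDIR44 to 7.86 for MpDIR45. Polyphenol oxidase genes were split, with 18 of 39 higher and 11 lower. MpPPO52 rose by 5.71, while MpPPO6 and MpPPO55 fell by 3.83 and 2.93 on the log2 scale. Class III peroxidase genes were split too, with 26 of 85 higher and 29 lower. MpPOD80 went from 5.46 ± 0.74 to 0.0882 ± 0.0769 CPM (-5.84), while MpPOD166 rose by 4.93.

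In the phenylpropanoid and flavonoid list, 35 of 61 tested genes rose and 7 fell, with a median of 0.87. Phenylalanine ammonia-lyase (PAL) genes, which open the pathway, rose in 9 of 10 cases, and genes of the chalcone synthase type (PKS/CHS) in 14 of 21. Those that fell included MpHCT at -1.83, MpCOMT at -1.08 and MpC4H3 at -0.83, named for enzymes downstream of PAL. Terpene synthase genes rose in 17 of 22 cases, with MpMTPSL23 going from 2 counts to 24.5 ± 16.6 CPM, and MpTPS5 fell by 2.11. Among 95 tested cytochrome P450 genes 50 were higher and 13 lower. In the CYP829 family 18 of 21 tested genes rose, with MpCYP829-like43 at 129, 150.1 and 129.6 CPM from 5 control counts. Of 31 UDP-glycosyltransferase (UGT) genes 19 rose and 4 fell, and of 14 ABCC transporter genes 9 rose and 1 fell. No control count was found for 15 of the 38 terpene synthase and 15 of the 129 P450 genes listed. The same held for 7 of the 37 UGT genes with any count. Tested terpene synthase, P450 and UGT genes thus include some that passed the filter only by being high in the double mutant.

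**Figure D2:**
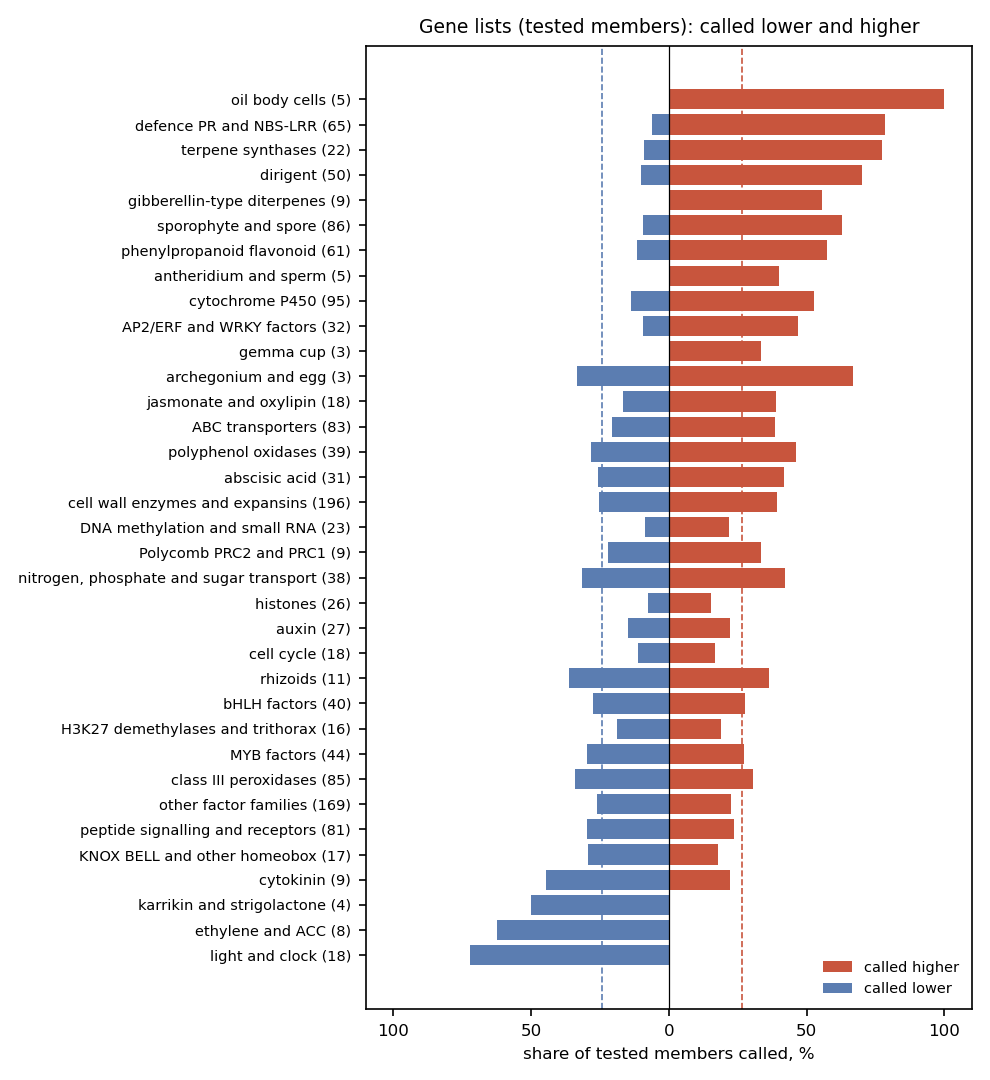
For each gene list, bars give the share of tested members called higher (to the right) and lower (to the left), in percent, with the number tested in brackets and dashed lines at the shares over all tested genes. Lists at the top hold more genes called higher than lower, and light and clock, ethylene, and karrikin genes at the bottom hold genes called lower and none called higher.

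Genes of light signalling and the clock were lower in small steps. Of 18 tested members 13 were called lower and none higher by edgeR (0 also at an unadjusted p under 0.05, and 0 by DESeq2), and the median log2 fold change was -0.37. MpLUX (MpGARP7), named for a clock repressor, was at 102, 99.2 and 90.4 CPM in the controls and at 55.7, 48.6 and 32.2 CPM in the Mpez1-1 libraries (-1.09). MpPIF (MpBHLH6), of the factors that phytochrome regulates, was at 332, 351 and 353 CPM and then at 207, 168 and 154 CPM (-0.97). The phytochrome gene MpPHY changed by -0.60, the clock genes MpTOC1 and MpRVE (Mp1R-MYB11) by -0.52 and -0.50, and the phototropin gene MpPHOT by -0.49. MpPRR, MpGI, MpUVR8, MpRUP and MpCDF did not pass, with MpCDF at 0.16. Without Mpez1-1 replicate 3, 10 of 18 were called lower. Plants grew in continuous light per the labels, and no time of harvest is given.

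Hormone lists differed in direction. Of 8 genes of the ethylene pathway and of its precursor ACC, 5 were lower and none was higher by edgeR (0 also at an unadjusted p under 0.05, and 0 by DESeq2). MpCTR1, a kinase gene of the pathway, was at 67.4, 71.2 and 79.7 CPM and then at 37.2, 39.3 and 32.2 CPM (edgeR adjusted p = 0.000182), and MpEIN2 and MpEIL changed by -0.79 and -0.66. Of 4 karrikin pathway genes, MpSMXL fell by 0.87 and MpDLP (MpGRAS2) by 0.67 on the log2 scale, while the receptor gene MpKAI2B was at 0.01. Of 9 cytokinin genes 4 fell and 2 rose. MpRRA, the type A response regulator gene that cytokinin induces, was at 475, 468 and 509 CPM and then at 261, 209 and 198 CPM (-1.12). The histidine kinase receptor genes MpCHK1 and MpCHK2 rose by 0.74 and 0.86. MpIPT2, named for a synthesis enzyme, had 2, 40 and 4 counts in the controls and 0 in the double mutant and was not tested.

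Abscisic acid (ABA) genes moved both ways, with 13 of 31 higher and 8 lower. The list also takes in protein phosphatases 2C of other clades, and 7 of its 8 lower genes were phosphatases 2C outside clade A, the clade known for ABA signalling. The receptor genes MpPYL2 and MpPYL4 and the phosphatase gene MpPP2C_A3 had 2, 3 and 2 control counts. MpPYL2 reached 53.2, 64.0 and 65.5 CPM (pooled ratio 1010, 95% counting interval 279 to 8346). MpPYL1, the receptor gene transcribed in both groups, rose by 0.47. MpABI3A, named for a transcription factor that carries ABA responses in seeds of flowering plants, was at 20.8, 20.5 and 12.8 CPM and then at 39.5, 37.0 and 45.6 CPM (1.17). MpCYP707A, named for the ABA-degrading hydroxylase, went from 75.5 ± 10.1 to 22.8 ± 4.10 CPM, with groups apart (-1.72, SE 0.15, edgeR adjusted p = 7.19e-05). The ABA synthesis gene MpNCED did not pass, at -0.55 (edgeR adjusted p = 0.0774).

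Of 27 auxin genes 6 rose and 4 fell. The efflux carrier gene MpPIN4 went from 15.9 ± 5.91 to 186 ± 31.7 CPM, with groups apart (3.54), and MpPIN3 rose by 1.78, while MpPIN1 and MpPIN2 did not pass, at 0.14 and 0.22. The receptor gene MpTIR1 and the repressor gene MpIAA fell by 0.50 and 0.53. MpYUC3, MpYUC4 and MpYUC5, of the family of auxin synthesis enzymes, had 0 counts in all 6 libraries. In the oxylipin list 7 of 18 genes rose and 3 fell, and the risen ones were all lipoxygenases. Of 14 tested lipoxygenase (LOX) genes, 7 rose, 2 fell and 5 did not pass. MpLOX1 was at 17.1, 8.45 and 11.2 CPM and then at 147, 159 and 113 CPM (3.51), and MpLOX6 rose by 4.48. The later steps MpAOS1 (MpCYP74N1) and MpAOS2 (MpCYP74N2) did not pass, at -0.19 and -0.14. The jasmonate-type receptor gene MpCOI1 fell by 0.44. Of 9 tested genes named for steps of gibberellin-type diterpene synthesis and signalling, 5 rose and none fell by edgeR (0 also at an unadjusted p under 0.05, and 0 by DESeq2), led by MpCPT6 at 2.47 and MpKOL3 at 2.13.

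Nutrient transporter genes changed by family. The PTB genes, named for phosphate transport, were lower throughout: all 6 tested of 8 fell, with a median of -2.82. MpPTB8 was at 144, 142 and 197 CPM and then at 43.5, 39.7 and 41.8 CPM (-1.95, SE 0.14, edgeR adjusted p = 2.36e-05). MpPTB5 had 13, 23 and 24 counts and then 0 in each Mpez1-1 library, at least 14.7-fold lower, and MpPTB1, untested, had 25 control counts and 0. MpPTB4, MpPTB6, MpPTB2, MpPTB3, MpPTB1 and MpPTB5 carry consecutive identifiers on chromosome 4. Of 23 NPF genes, of the nitrate and peptide transporter family, 11 rose and 3 fell, with MpNPF7 from 1.08 to 16.0 CPM (3.87) and MpNPF17 at -2.16. Of 5 tested genes of the AMT family, named for ammonium transporters, 3 rose and 1 fell, with a median of 0.74. The most abundant, MpAMT1.2, fell from 225 to 106 CPM (-1.09), while MpAMT1.4 rose by 1.08, MpAMT2.3 by 0.74 and MpAMT2.4 from 1.02 to 2.32 CPM. Each of these 3 rises kept its call in only 1 or 2 of the 6 fits without 1 library, and those of MpAMT1.4 and MpAMT2.4 were lost without Mpez1-1 replicate 3. The list these were drawn from, nitrogen, phosphate and sugar transport, held 16 higher and 12 lower of 38 tested genes, 2 of which (MpPHOT and MpHAKAI) matched by letters alone.

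Among transcription factors, WRKY genes rose in 9 of 13 cases and NAC genes in 7 of 8. MpWRKY3, of a family known for defence responses, was at 1.33, 0.975 and 0.417 CPM and then at 29.3, 31.5 and 22.2 CPM (4.88). MpNAC6 rose by 2.82, and MpNAC2 did not pass, at -0.27. In the combined list of AP2/ERF and WRKY factors 15 of 32 rose and 3 fell, with MpERF12 at 5.02. MYB genes (12 higher, 13 lower of 44) and bHLH genes (11 and 11 of 40) were called in both directions. Other factor families gave 38 higher and 44 lower of 169, with MpBZR3 going from 2 counts to 29.5 ± 2.50 CPM and MpC2H2-9 at -1.59. Of 34 trihelix factor genes 14 fell and 4 rose.

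Of 17 tested homeobox genes 3 rose and 5 fell. MpBELL1 and MpBELL4, of the partners of KNOX proteins, went from 0.479 ± 0.195 to 5.15 ± 0.24 CPM and from 0.531 ± 0.175 to 2.56 ± 1.18 CPM. MpC2HDZ, MpC3HDZ and MpC4HDZ fell by 1.12, 0.59 and 0.50 on the log2 scale, and MpC1HDZ rose by 0.80. MpBELL2 had 0 counts in every library. In the cell cycle list 3 of 18 genes were higher and 2 lower, and MpCYCB_1 at -0.79, with overlapping groups, lost its call in 5 of 6 fits without 1 library. Receptor-like kinase and peptide genes gave 19 higher and 24 lower of 81.

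Genes of other chromatin pathways moved in part. Of 23 genes of DNA methylation and small RNAs 5 rose and 2 fell. MpPIWIa and MpPIWIb, of the Argonaute superfamily, are neighbours: MpPIWIa was at 0.0887, 0.163 and 0.521 CPM and then at 10.5, 10.8 and 22.9 CPM (5.84), and MpPIWIb rose by 5.55. MpNRPD1, a gene of RNA polymerase IV, was at 16.6, 17.8 and 16.7 CPM and then at 38.4, 35.0 and 35.9 CPM (1.10). MpMET, named for the maintenance DNA methyltransferase, and MpDDM1 did not pass, at 0.38 and -0.11. Of 16 trithorax and demethylase genes 3 rose and 3 fell: MpATXR3 and MpATXR5 rose by 3.79 and 3.75, MpATXR1 went from 13.3 to 37.7 CPM, and MpREF6, named for an H3K27 demethylase, fell by 0.46. Of 26 histone genes 20 did not pass. MpH3.3a, MpH3.3b and MpH2A.Z, variants made outside replication, rose by 0.63, 0.44 and 0.53, MpH2B.1 fell by 0.83, and MpH2A.W.1 came on from 0 to 43 counts.

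Among families of at least 8 symbols, genes of pentatricopeptide repeat (PPR) proteins, which process RNA in chloroplasts and mitochondria, stood among the lower ones. Of 71 tested PPR genes 39 fell and 4 rose, with a median of -0.47. MpPPR_26 went from 49.9 to 19.9 CPM (-1.32). FAD genes, named for fatty acid desaturases, fell in 6 of 12 cases and rose in 1, with MpFAD5 and MpFAD10 at -1.22 and -1.14. Expansin genes, whose products loosen cell walls, fell in 6 of 16 cases and rose in 4. Cell wall enzyme genes as a whole gave 77 higher and 50 lower of 196, with the chitinase-type gene MpGH19.13 at 5.10 and MpGH16.42 falling from 936 to 246 CPM. ABC transporter genes gave 32 and 17 of 83.

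Further lists held genes known from particular organs or cell types. In bulk RNA, fewer cells of a type and less RNA per cell cannot be told apart. The spore and sporophyte list was chosen by symbol and held mostly genes of late embryogenesis abundant (LEA) proteins, which protect drying cells. Whether spore or sporophyte cells were present was not tested. Genes of the list were higher in 54 of 86 cases and lower in 8, with a median of 1.98. By symbol family, LEA genes gave 35 higher and 6 lower of 53 tested, with a median of 3.18. The ACOS genes, also in this list, gave 7 higher and 2 lower of 18, with a median of 0.30. LEA genes thus made up most of the list's higher genes, and members of other families rose too, MpDHN1 and MpOLEOSIN among them. The summed level of the list's 100 members was 3206, 3288 and 3389 CPM in the controls and 3957, 4131 and 8936 CPM in Mpez1-1 replicates 1, 2 and 3. Replicate 3 was over 1 log2 unit above the mean of the other Mpez1-1 libraries for 28 of the 67 members with at least 5 CPM (41.8%), against 2.04% of all such genes. MpLEA-like49 was at 2.84, 2.68 and 2.71 CPM in the controls and at 29.3, 87.4 and 1928 CPM in the Mpez1-1 libraries (log2 fold change 7.95, SE 2.25, edgeR adjusted p = 0.0382). Without replicate 3 its log2 fold change was 4.41, and its call was lost without each of the controls in turn. All 8 called genes with the largest spread among the Mpez1-1 libraries were likewise highest in replicate 3, MpLEA-like9 and MpLEA-like46 among them. Without replicate 3 the list still gave 57 genes higher and 9 lower, with a median of 1.60. MpDHN1, a dehydrin gene, was at 3.02, 2.84 and 0.625 CPM and then at 15.3, 24.8 and 211 CPM. Its log2 fold change was 5.21 with all libraries and 3.17 without replicate 3 (edgeR adjusted p = 0.0384 and 0.00316), and its call was kept in 3 of the 6 fits without 1 library. MpOLEOSIN, named for the coat protein of lipid droplets, was at 2.66, 1.71 and 2.50 CPM and then at 21.8, 27.8 and 80.7 CPM, and rose by 4.24, or by 3.44 without replicate 3. MpKNOX1 (MpHD20) had 0.704 and 0.280 CPM, too few counts to test. What set replicate 3 apart was not tested.

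**Figure D3:**
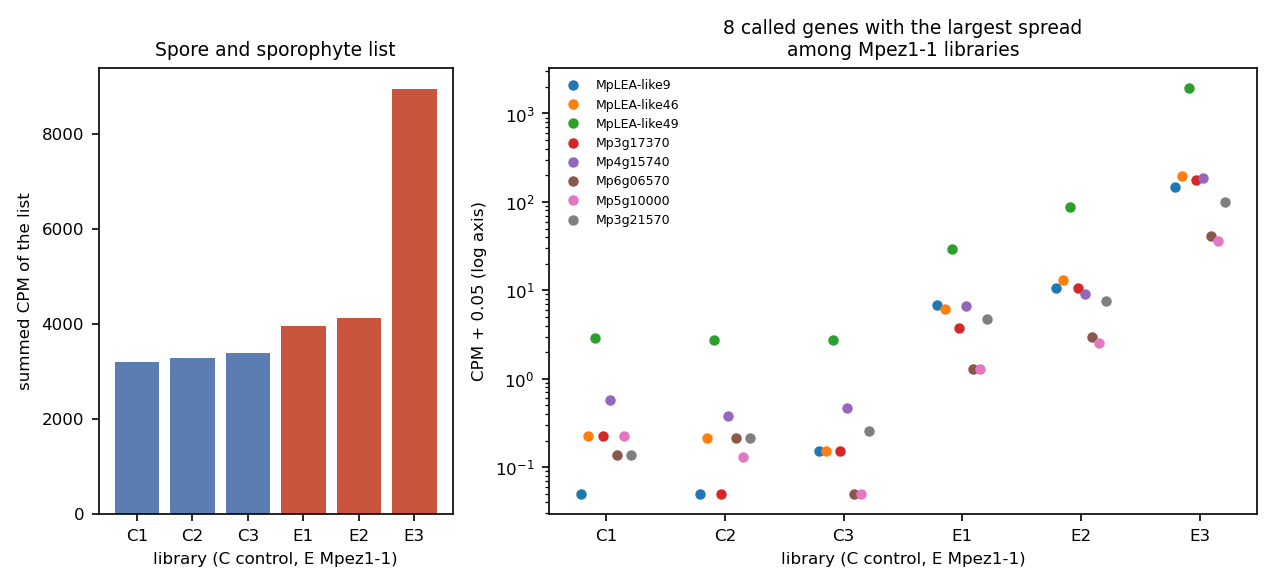
Left, bars give the summed CPM of the 100 genes of the spore and sporophyte list in each library (C, Mpknox2-1 control replicates; E, Mpez1-1 replicates); right, points give CPM plus 0.05 on a log axis for the 8 called genes with the largest spread among the Mpez1-1 libraries. All Mpez1-1 libraries lie above the controls, and E3 is far above E1 and E2. The list was chosen by symbol and holds mostly LEA genes.

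Oil bodies are organelles of scattered liverwort cells that store terpenoids. All 5 genes of the oil body list rose, and 4 were called without Mpez1-1 replicate 3; MpERF13, at 0.70, was called in 1 of the 6 fits without 1 library. MpC1HDZ, a regulator of these cells, was at 130, 138 and 139 CPM and then at 237, 236 and 235 CPM. MpSYP12B, a marker of the oil body membrane, was at 4.79, 4.23 and 4.06 CPM and then at 13.6, 9.86 and 11.9 CPM (1.43), and the summed level of the list went from 150 to 156 CPM in the controls to 275 to 278 CPM, most of it from MpC1HDZ. Rhizoid genes were split, with 4 of 11 higher and 4 lower. MpCSLD3, a cellulose synthase-like gene, was at 478, 561 and 498 CPM and then at 299, 273 and 237 CPM, and the regulator MpRSL1 (MpBHLH14) did not pass, at -0.24. The summed rhizoid level was 1769 to 2079 CPM in the controls and 1466 to 1680 CPM in the Mpez1-1 libraries.

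Genes of reproductive organs changed one by one. MpBNB (MpBHLH20), which starts germ cell formation, had 0 control counts and 11, 19 and 16 counts in the Mpez1-1 libraries, at least 20.8-fold higher. MpFGMYB (MpR2R3-MYB1), a regulator of female sexual differentiation, rose from 1.43 ± 0.18 to 5.25 ± 0.59 CPM, and MpRKD, an egg cell regulator, fell by 0.46. In the antheridium and sperm list 2 of 5 tested genes rose, MpGCS1 at 1.32 and MpCEN1 at 0.36. The sperm protamine gene MpPRM had 0 counts in all 6 libraries and MpLC7 had 1. Of 3 gemma cup genes, MpGCAM1, which is needed for cup formation, was at 3.67 ± 0.25 CPM and then at 8.12 ± 1.80 CPM (1.15). The other two did not pass.

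Runs of called genes were counted in the reference order. Runs of at least 2 neighbours called in the same direction numbered 577 upward and 503 downward, and 33 and 11 of these held 5 genes or more. The longest run held 11 risen genes, MpPKS/CHS10 to MpPKS/CHS16 on chromosome 4, in which genes of the chalcone synthase type were interspersed with MpPAL7, MpPAL6, MpPAL-like2 and MpPAL4. Its log2 fold changes ran from 1.08 for MpPAL6 to 3.45 for MpPKS/CHS16. Its most abundant gene, MpPKS/CHS15, was at 98.3, 90.4 and 133 CPM and then at 402, 469 and 496 CPM. The 8 genes from Mp1g22330 to Mp1g22420 held the 4 abundant genes described above and rose by 3.95 (Mp1g22410) to 8.46 (Mp1g22380). A run of 9 on chromosome 3, from Mp3g18470 to Mp3g18540, held MpMTPSL2 and MpCPT5 and rose by up to 6.08 (Mp3g18480). A dirigent run of 8, from Mp5g16430 to MpDIR38, rose by 1.19 (Mp5g16430) to 8.07 (MpDIR42) and held MpPPO28.

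Of the 11 falling runs of at least 5 genes the longest held 10. These genes, Mp4g05960 to Mp4g06050, fell by 0.67 to 1.70, and the 10th, Mp4g06050, was the most abundant. The 8 genes from Mp2g20590 to MpICS fell by 1.03 to 3.02. MpICS, named for isochorismate synthase of the salicylate and phylloquinone pathways, was at 21.3, 23.2 and 22.1 CPM and then at 11.9, 10.9 and 5.65 CPM, and Mp2g20650 next to it was at 51.6, 44.6 and 57.5 CPM and then at 13.7, 12.5 and 9.89 CPM. No count of the runs that unordered genes would give was made, and members of tandem families may share reads.

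**Figure D4:**
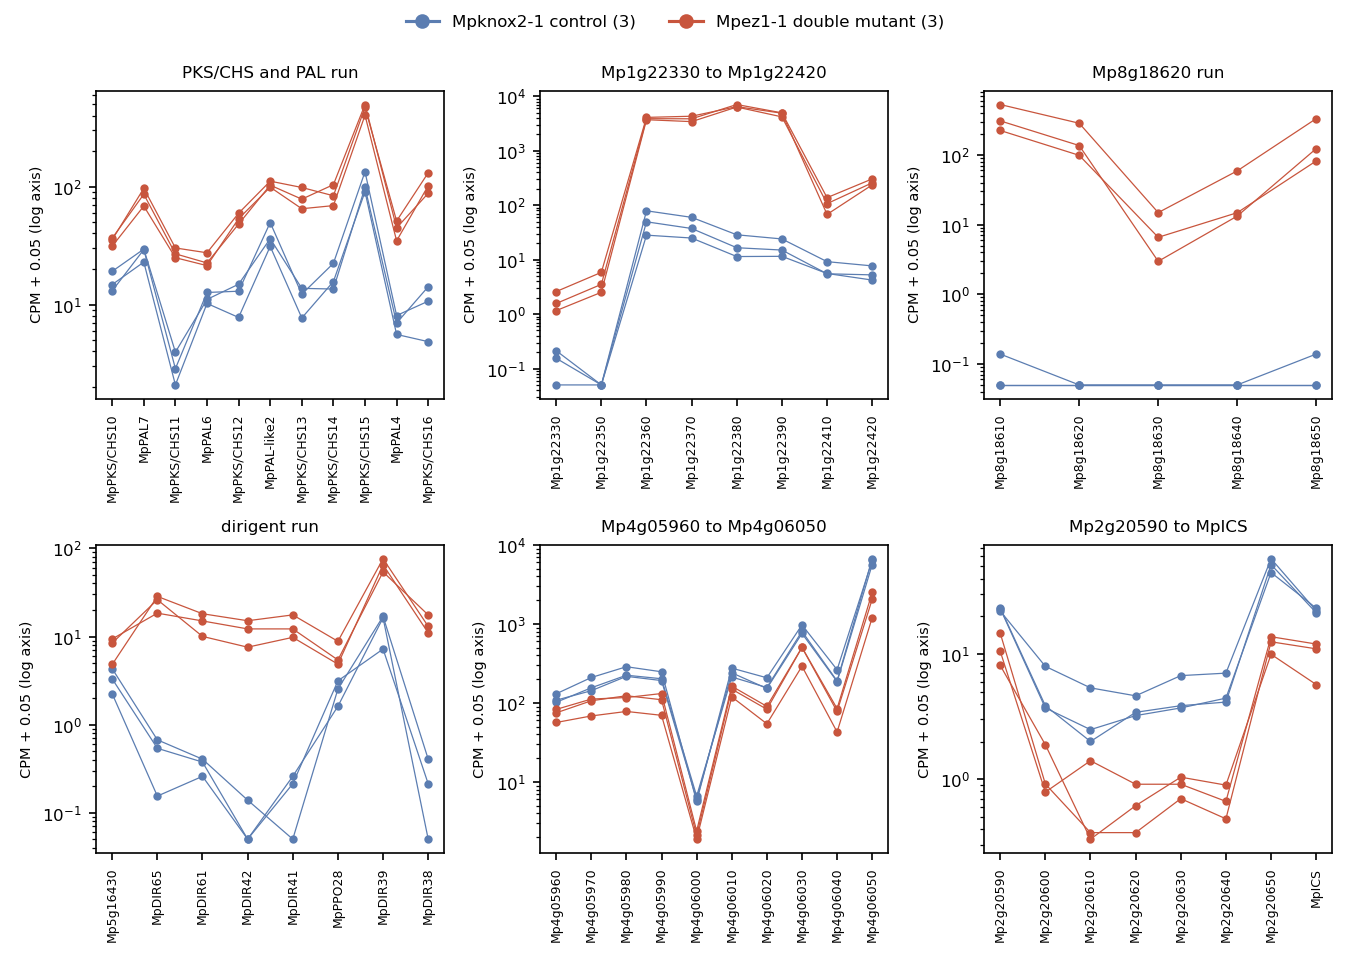
Each panel shows 1 run of neighbouring called genes in reference order (x axis), with CPM plus 0.05 on a log axis for the 3 Mpknox2-1 controls (blue) and the 3 Mpez1-1 double mutant libraries (red); lines join genes of 1 library. In the panels of risen genes the red points lie above the blue ones at every gene, and in the panels of fallen genes they lie under them.

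Opposite-strand reads, taken from the second table of each library, came to 1.77% to 2.17% of sense and opposite-strand gene counts together. Of 1825 genes with enough opposite-strand counts, 260 were called higher (14.2%) and 102 lower (5.59%). Of the 260, 105 also rose on the sense strand, 8 fell, 47 did not pass and 100 had too few sense counts to test. In 142 of the 260, the mean opposite-strand level in the Mpez1-1 libraries exceeded the sense level, and 99 of these had too few sense counts to test. Such counts need not be a transcript of the gene's own locus. Mp1g17700 had mean opposite-strand levels of 964 CPM in the controls and 2427 CPM under Mpez1-1. Its neighbour Mp1g17690 had sense levels of 963 and 2426 CPM. Mp4g19880 had 0 opposite-strand counts in the controls and 37.5, 38.7 and 37.0 CPM in the Mpez1-1 libraries, at least 418-fold higher, beside a sense level that went from 0.474 to 12.6 CPM. MpPIWIb had more opposite-strand than sense counts, 1.26 ± 0.71 CPM in the controls and 31.1 ± 8.74 CPM in the Mpez1-1 libraries. MpBELL4 did too, with 1.01 ± 0.34 and 6.58 ± 0.69 CPM, beside sense levels of 0.531 and 2.56 CPM. In MpDIR48, Mp7g02900, Mp1g22390 and Mp1g22370 the opposite-strand level rose as well, to 7.78, 49.0, 18.9 and 10.9 CPM, beside sense levels of 1314, 14825, 4683 and 3866 CPM. These were only 0.592%, 0.330%, 0.403% and 0.282% of the sense levels. Whether they are transcripts of their own was not tested. Mp1g15570 had opposite-strand levels of 25.5, 38.2 and 33.2 CPM and then 3.45, 3.47 and 0.848 CPM (-3.61). Its neighbour in number, Mp1g15580, fell on the sense strand, and overlap of neighbouring transcripts was not examined.

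Transposable elements (TEs) were counted copy by copy, and most tested copies that were called rose. Of 89262 copies, 314 had enough counts for a test in the first tables, and a copy with few control counts passes only by being high in the double mutant. Of these 314, 172 were higher (54.8%) and 20 lower (6.37%). Of 1168 tested in the second, 480 were higher (41.1%) and 127 lower (10.9%). Summed by family, 82 of 211 families were higher (38.9%) and 6 lower (2.84%) in the first tables, and 83 of 271 (30.6%) and 19 (7.01%) in the second. The total TE share overlapped between groups. Beside the sense gene counts it was 0.552%, 0.705% and 0.313% in the controls and 1.00%, 0.620% and 0.698% under Mpez1-1 in the first tables. In the second tables it was 6.33%, 7.84% and 4.25% and then 9.18%, 5.97% and 7.53%. The strand of a TE count and the position of a copy are not given, so copies inside risen genes cannot be told apart from copies transcribed on their own.

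The DNA transposons of type DTM gave close values within each group in the first tables. Their summed level there was 195, 161 and 191 CPM in the controls and 422, 423 and 419 CPM in the Mpez1-1 libraries. Of 53 tested copies 35 were higher and 2 lower. Family TE_00000406 of this type was at 1.42, 1.06 and 1.98 CPM and then at 73.9, 94.8 and 83.1 CPM (5.82). The Copia family TE_00000508_INT had 2 control counts and 683 in the Mpez1-1 libraries, and 680 of these came from 1 copy, TE_homo_57228, at 28.2, 28.5 and 26.6 CPM. The copies with the largest log2 fold changes of the second tables were 4 of family TE_00000413, of type DTM, with 0 to 2 control counts each. Copy TE_homo_77393 reached 279, 409 and 635 CPM and copy TE_homo_77394 97.9, 119 and 172 CPM, both highest in replicate 3. Summed over DTM DNA copies, the second tables gave 1266, 1168 and 1142 CPM and then 2584, 2822 and 3430 CPM, also highest in replicate 3. There 83 of 145 tested DTM copies were higher and 8 lower. By family, 13 of 47 were higher and 5 lower, beside 30.6% and 7.01% of all tested families. Family TE_00000275, of no known type, was at 41.5, 26.7 and 16.8 CPM and then at 1559.9, 1738 and 2061 CPM. MITE copies of type DTM, short elements without a transposase gene, gave 9 of 11 tested copies higher in the second tables, where their summed level was 66.8, 66.5 and 89.2 CPM and then 428, 451 and 478 CPM. In the first tables their groups overlapped, at 9.05, 8.78 and 9.37 CPM and then at 17.0, 9.96 and 7.35 CPM, and the 1 tested copy was not called.

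Abundant TE families differed in their calls. The Gypsy family TE_00000630_INT held 50.7% to 78.3% of TE counts of the first tables, at 3651, 5473 and 1652 CPM and then at 6812, 3168 and 3984 CPM (edgeR adjusted p = 0.611). Family TE_00000015 held 31.6% to 56.6% in the second tables, with control replicate 3 again the lowest, and was not called (edgeR adjusted p = 0.420). TE_00000488_INT was at 3247, 3328 and 3611 CPM in the second tables and then at 4478, 4794 and 4583 CPM and was not called, although its groups did not overlap (0.44, edgeR adjusted p = 0.104). TE_00000180, of no known type, rose from 196, 197 and 210 CPM in the first tables to 402, 348 and 293 CPM (0.79, edgeR adjusted p = 0.00362). Falling families were few. TE_00000309 was at 9450, 10064 and 10762 CPM in the second tables and then at 4443, 3927 and 2515 CPM (-1.48, SE 0.26, edgeR adjusted p = 0.00104). TE_00000257 was at 31.7, 60.2 and 316 CPM and then at 11.1, 10.4 and 6.78 CPM, and its call was lost in 4 of 6 fits without 1 library.

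**Figure D5:**
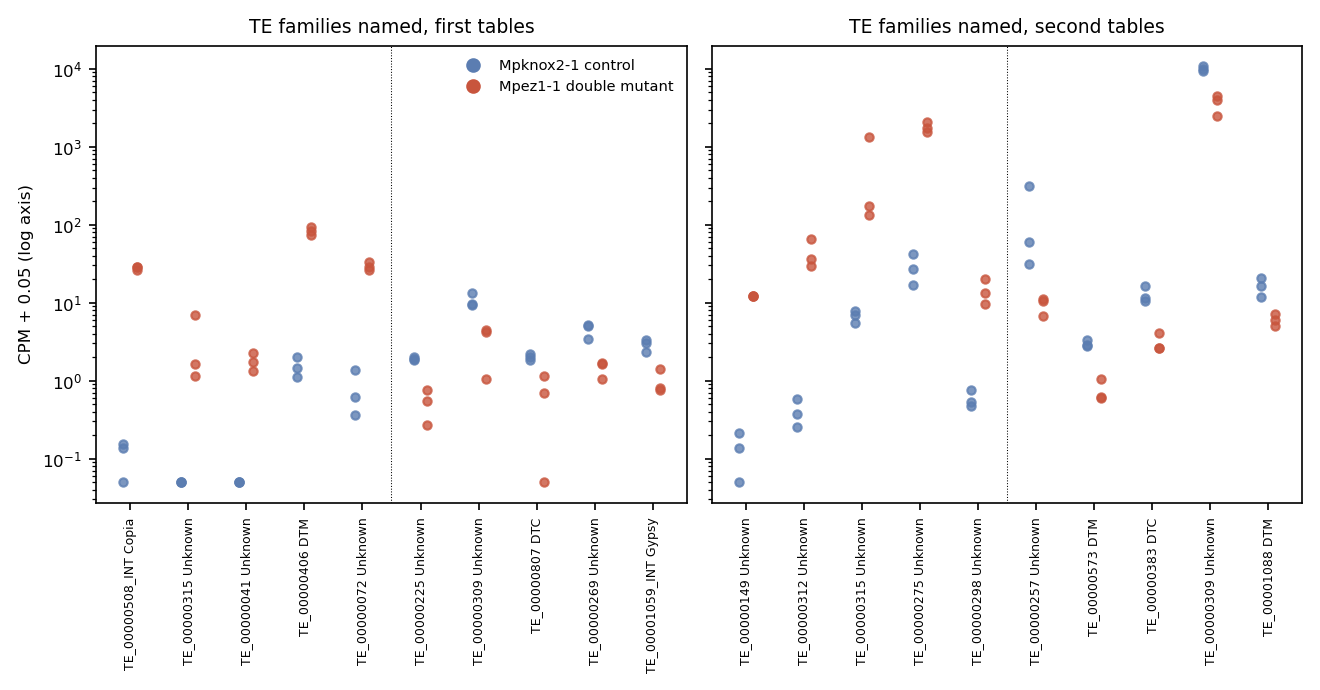
Points give CPM plus 0.05 on a log axis for each TE family named by size of change, 1 point per library, in the first tables (left) and the second tables (right); families left of the dotted line were called higher and those right of it lower. Groups do not overlap in any family shown, and TE_00000315 and TE_00000257 have 1 library far from the others of its group.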

How the data were processed

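Per the labels and the file contents, the authors deposited raw counts, whole numbers for 19441 genes and 89262 TE copies, in a pair of tables for every library. The submitters' processing notes name Trim Galore and STAR. The sources used here do not give the settings, the counter, the genome build or how reads with several matches were treated. The kit was directional per the labels. Symbols and neighbour order came from a reference table of another source (Tak2 assembly), matched by identifier number for 17624 genes, of which 3088 had a symbol.

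The 6 libraries were compared with edgeR 4.0.16 (R 4.3.3, glmQLFit with robust estimation, then glmQLFTest) on counts that passed filterByExpr (min.count 10, min.total.count 15). TMM factors were set on genes and TE copies together, and the second tables used the same library sizes and factors. Benjamini-Hochberg adjustment was made within genes and within each kind of TE feature. Each SE is the absolute log2 fold change divided by the square root of the F statistic, so it is no measure apart from the test. Folds against 0 counts are bounds against a floor of 3 counts over the group, and ratios against 1 to 3 counts carry exact 95% intervals; both cover counting error only. Alternatives were RLE scaling, TMM over genes alone, no filter, DESeq2 1.42.0, a replicate block and leaving out each library.

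The members and the 35 gene lists were chosen with earlier results of these data known. Named genes follow a rule: Polycomb genes, genes that came on from 0, the largest changes in level and in share, up to 4 called genes per list and members that did not pass, the largest TE and opposite-strand changes, the longest runs and the largest spread among Mpez1-1 libraries. Other members named from the lists, the families by symbol, and the genes beside Mp8g18620 were chosen after their values were seen. Libraries of set 2 were not used here.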

Additional observations from a re-analysis of the deposited data

How the results depend on the processing

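Calls of genes stayed within 1.5 times of the counts above under every alternative tried: 4017 higher and 3263 lower without the filter, 3456 and 2722 with DESeq2, and 2779 to 3308 higher and 2349 to 2953 lower when 1 library was left out. TE copies called higher in the first tables numbered 295 without the filter and 273 with DESeq2, against 172. Opposite-strand genes called higher numbered 398 without the filter and 182 to 402 when 1 library was left out, against 260. Those called lower numbered 61 with DESeq2, 67 with the replicate block and 47 to 141 when 1 library was left out, against 102. Genes on from 0 control counts numbered 149 with a minimum of 5 counts and 59 with a minimum of 20, against 98, and genes off to 0 numbered 1 with a minimum of 20. The cause of these shifts was not tested, beyond the thresholds themselves.

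Replicate numbers gave no sign of pairing: deviations of same-numbered libraries from their group means correlated at 0.029, -0.020 and 0.089 across genes. Those of differently numbered libraries correlated at -0.162 to 0.167. With 3 libraries per group, whose deviations depend on each other, this check cannot exclude pairing. With the replicate block 3355 genes were higher and 3089 lower. Of the 234 named features with a test, 230 to 234 had a value under each of the 11 alternatives, and none of these values reversed its direction. Calls were lost for 1 to 22 of them per alternative, most without control replicate 2, and for none with TMM over genes alone. Depth limits the genes near 10 counts: a gene at 0 in a group may be transcribed below the floor of 3 counts.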
